A study of Mus musculus with 4 samples.

Results

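The endothelial cells of the mouse pituitary were examined in 4 single-cell RNA libraries. They were chosen by their transcripts: a barcode was counted as endothelial when it held at least 1 UMI (unique molecular identifier, the count of captured transcripts) of at least 3 of Plvap, Pecam1, Emcn, Egfl7, Cdh5 and Esam, and 0 UMIs of C1qa, a complement gene of macrophages. Of 29899 kept barcodes, those with at least 500 detected genes and at most 20% mitochondrial UMIs, 64 met this rule. The levels of these 6 genes and of C1qa were therefore fixed by the choice and are given as a description only. The series set mice with transgenic p25 overexpression (p25OE) beside their wild-type littermates (WT), aged 14 weeks or 40 weeks, and made 1 library from each combination. The strain label of all 4 libraries was C57BL/6- B6;CBA-BiTg mice. p25 is a fragment of p35, the Cdk5r1 product that activates the kinase Cdk5; the promoter that drives p25 and the number of mice behind each library are not given in the sources used here. A lone library per group gives no measure of replicate spread, so no test was made, and every interval below is an exact 95% interval that covers counting error only.

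Pituitary capillaries carry hypothalamic releasing factors to the hormone cells and take up the hormones they secrete. Their endothelium is fenestrated: its pores are spanned by diaphragms built from PLVAP, and it lacks the tight barrier of most brain capillaries. Endothelial cells are kept by VEGF signalling through KDR and FLT1 and by angiopoietin signalling through the receptor TEK and its relative TIE1. They are joined by VE-cadherin (Cdh5), PECAM1 and ESAM.

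The 4 libraries held 53714895 to 95242353 UMIs and 6579 to 7927 kept barcodes, with median UMIs per kept barcode of 10778 and 6340 at 14 weeks (WT, then p25OE) and 4940 and 6626 at 40 weeks. The barcode filters removed unequal numbers: 1646, 6543, 4122 and 362 barcodes had fewer than 500 genes in the same order, and 1132, 4136, 19 and 81 had more than 20% mitochondrial UMIs. The libraries of the same age shared 32 barcodes at 14 weeks and 135 at 40 weeks, and none of the shared barcodes was endothelial in both libraries.

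The endothelial barcodes were concentrated in the p25OE library at 14 weeks. The rule found 3 of 6579 kept barcodes in WT at 14 weeks, a share of 0.0456% (0.0094 to 0.133%). It found 52 of 7667 in p25OE at 14 weeks, a share of 0.678% (0.507 to 0.888%). At 40 weeks it found 5 of 7927 in WT, a share of 0.0631% (0.0205 to 0.147%), and 4 of 7726 in p25OE, a share of 0.0518% (0.0141 to 0.133%). The p25OE share was thus 14.9 times the WT share at 14 weeks (4.82 to 74.5) and 0.821 times at 40 weeks (0.163 to 3.81). The interval of the share in p25OE at 14 weeks lay above those of the other 3 libraries, which overlapped one another. A share of dissociated barcodes depends on how many cells of each type survived the papain digestion and on what the filters removed, and neither was tested.

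The condition on C1qa took away unequal parts of the libraries. C1qa was found in 18.3%, 21.1%, 54.6% and 23.5% of kept barcodes (values run WT, p25OE at 14 weeks, then WT, p25OE at 40 weeks, here and below). Of the barcodes that held it, 420 of 1204, 561 of 1616, 2047 of 4326 and 1327 of 1813 held 1 UMI. Of the 13, 78, 8 and 5 barcodes with at least 3 of the 6 endothelial markers, 10, 26, 3 and 1 held C1qa. In WT at 14 weeks, 8 of the 10 that were removed held at least 3 macrophage markers (C1qa, C1qb, C1qc, Cx3cr1, Csf1r and Mrc1). In p25OE at 14 weeks 17 of the 26 did. C1qa itself counts as 1 of the 3, so these counts were partly fixed by the choice. Without the condition the shares were 0.198%, 1.02%, 0.101% and 0.0647%, and the ratio of p25OE to WT was 5.15 at 14 weeks (2.84 to 10.1) and 0.641 at 40 weeks (0.165 to 2.22). The value of 14.9 at 14 weeks therefore rests on the 3 WT barcodes that the C1qa condition left, while its direction held with and without it.

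**Figure D1:**
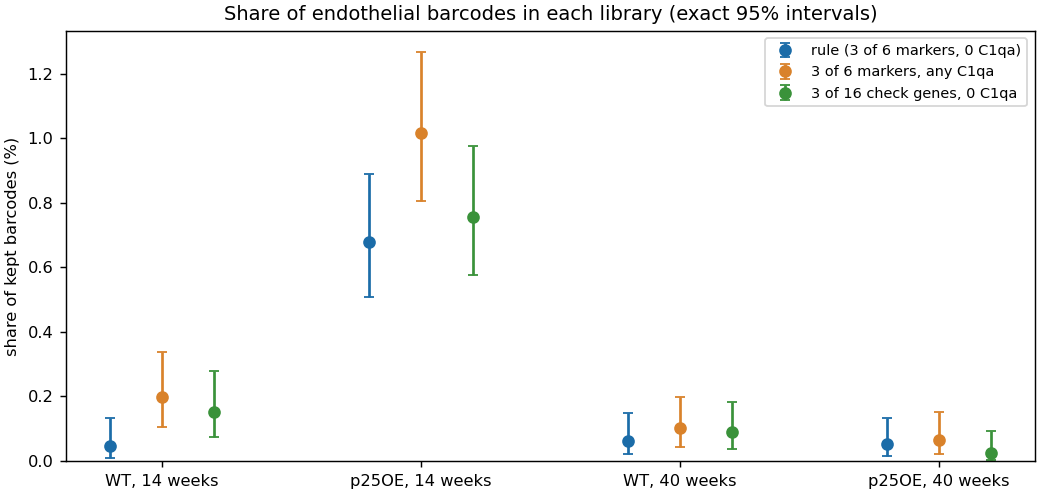
Share of kept barcodes (%) counted as endothelial in each library under the rule (blue), without the condition on C1qa (orange) and by 16 other endothelial genes (green), with exact 95% intervals. The p25OE library at 14 weeks stands at 0.678%, 1.02% and 0.756%, and the other 3 libraries stay below 0.2% under each definition.

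The label was checked with 16 endothelial genes that the rule did not use: Kdr, Flt1, Tek, Tie1, Cldn5, Eng, Erg, Robo4, Mmrn2, Ptprb, Ramp2, Clec14a, Ecscr, Cd93, Sox17 and Sox18. In p25OE at 14 weeks 50 of the 52 endothelial barcodes held at least 3 of these genes, with a median of 10. In WT at 14 weeks all 3 did, with a median of 5. In WT at 40 weeks 4 of 5 did, with a median of 3. In p25OE at 40 weeks only 1 of 4 did, and the other 3 held none of the 16, so the label did not hold for them. The only endothelial barcode there with check genes held 6 of them, in 2217 UMIs. Counted by the check genes alone (at least 3 of 16, 0 UMIs of C1qa), 10, 58, 7 and 2 barcodes were endothelial, and the ratio of p25OE to WT was 4.98 at 14 weeks (2.52 to 10.9) and 0.293 at 40 weeks (0.0297 to 1.54). The 58 barcodes found by both sets were 90.6% of the 64 endothelial barcodes and 75.3% of the 77 found by the check genes.

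**Figure D2:**
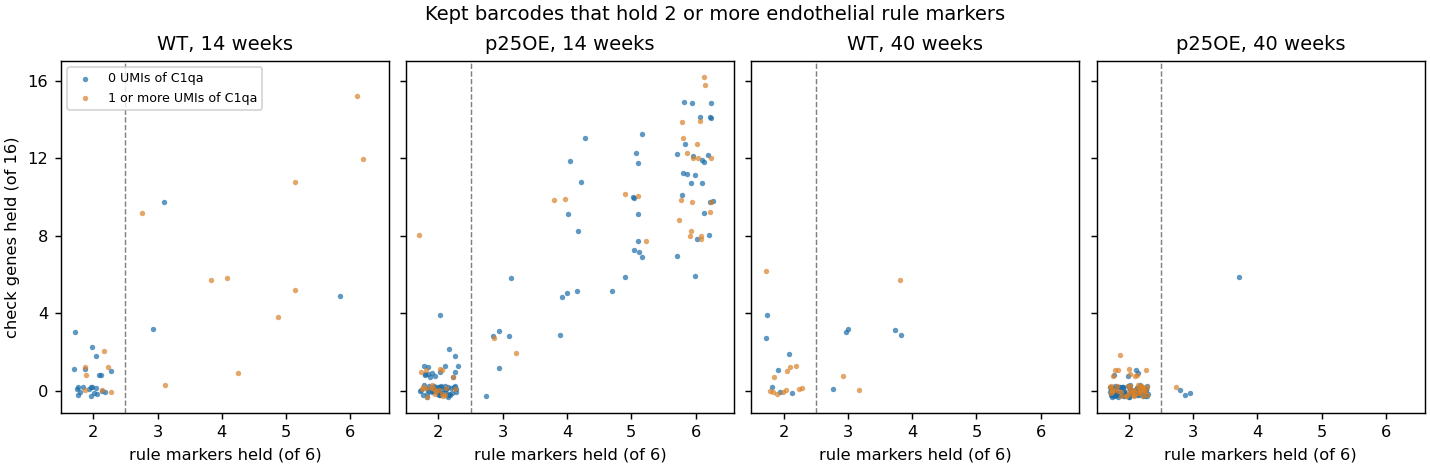
Number of the 16 check genes (vertical axis) against number of the 6 rule markers (horizontal axis) held by each kept barcode with at least 2 rule markers, 1 panel per library, points spread to show overlaps and coloured by C1qa. The dashed line is the rule's threshold of 3 markers. In p25OE at 14 weeks the barcodes with 4 or more markers also hold many check genes, while in p25OE at 40 weeks most points lie at 2 markers and 0 check genes.

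Barcodes near the threshold of 3 markers held fewer check genes. In p25OE at 14 weeks the 6 barcodes just inside it, with exactly 3 markers, held a median of 3 check genes and 15.4% hormone UMIs. The 25 barcodes with all 6 markers held a median of 11 check genes and 2.63% hormone UMIs. Just outside, with exactly 2 markers and 0 UMIs of C1qa, were 22, 62, 7 and 81 barcodes, of which 1, 1, 2 and 0 held 3 or more check genes.

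Hormone transcripts, which gland cells make in great amounts and which can float free in a cell suspension, were present in every endothelial barcode. They made up a median of 4.79%, 3.31%, 20.9% and 2.80% of their UMIs, against 26.1%, 14.97%, 31.0% and 6.73% in the other kept barcodes. No doublet caller was used. Of the 64 barcodes, 3 held at least 3 markers of another class (1 mural, 2 stem cell), all in p25OE at 14 weeks. There 4 of the 52 exceeded 10000 UMIs (13564, 19539, 35070 and 42113). The barcode of 35070 UMIs held 3 rule markers, 1 check gene and 0 UMIs of Plvap. The summed depth of the endothelial barcodes was 3616 UMIs in WT at 14 weeks, 294233 in p25OE at 14 weeks, 7287 in WT at 40 weeks and 30385 in p25OE at 40 weeks. The profile below was therefore read from p25OE at 14 weeks, the only library with at least 10 endothelial barcodes.

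Within that library the UMIs of the 52 endothelial barcodes were summed and set against those of the other kept barcodes as CPM, counts scaled to a total of 1000000 UMIs. Of 4504 genes with a mean level worth at least 10 UMIs, 877 (19.5%) were at least 2-fold higher in the endothelial barcodes and 145 (3.22%) at least 2-fold lower. The median log2 ratio over the 4504 genes was 0.27. A gene that is nearly absent elsewhere could pass this filter only through a high level in the endothelial barcodes and then had to be higher, so the counts of genes below are descriptions and nothing is read from their share.

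The rule markers themselves stood at 2107 CPM for Plvap, 1580 for Egfl7, 788 for Emcn, 404 for Pecam1, 404 for Esam and 387 for Cdh5. Plvap, which builds the diaphragm of the fenestrae (chr8:71497765-71511752, minus strand, GRCm38), was found in 49 of the 52 barcodes, and its level per barcode ranged from 0 to 7699 CPM with a median of 2886. Egfl7, which encodes a secreted factor of endothelial cells, was found in 51, with a median of 2326 CPM and a highest value of 7557. Cdh5 was the least often found, in 37. In the other kept barcodes of the library the 6 genes stood between 2.15 CPM (Cdh5) and 15.1 CPM (Plvap). Those barcodes include the 26 with C1qa, and without the barcodes that held 2 or more markers the ratio of Plvap rose from 140 to 274 and that of Cdh5 from 180 to 1151.

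Among genes that passed the filter, the 15 with the highest ratios outside the rule were Tek, Adgrl4, Grrp1, Tie1, Adcy4, Exoc3l2, Igfbp3, Aplnr, Mmrn1, Tbxa2r, Sox17, Itm2a, Clec1a, Kdr and Cldn5. Tek, the angiopoietin receptor (chr4:94739289-94874976, plus strand), had 45 UMIs in 23 barcodes, 153 CPM against 0.442 CPM elsewhere, a ratio of 346 (214 to 566). Adgrl4, an adhesion receptor of endothelial cells, had 146 UMIs in 42 barcodes, 496 against 1.47 CPM. Igfbp3, which encodes a carrier of insulin-like growth factors (chr11:7206086-7213923, minus strand), was the most abundant of the 15, with 434 UMIs in 43 barcodes, 1475 against 5.22 CPM, a ratio of 283 (245 to 326). Kdr, the main VEGF receptor (chr5:75932827-75978458, minus strand), had 250 UMIs in 47 barcodes, 850 against 3.58 CPM. The 15 genes differed in how many barcodes held them, from 10 of the 52 for Cldn5 and 13 each for Sox17 and Mmrn1 to 47 for Kdr. Igfbp3 was found in 63.3% and Kdr in 65.3% of the 49 barcodes that could be thinned to 1000 UMIs, against 0.466% and 0.373% of the others. Without the 4 barcodes of over 10000 UMIs all 15 genes were still called. The ratio of Igfbp3 was then 380 and that of Kdr 360. Of 129 named ratios 89 moved out of their main intervals, which cover counting error only.

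**Figure D3:**
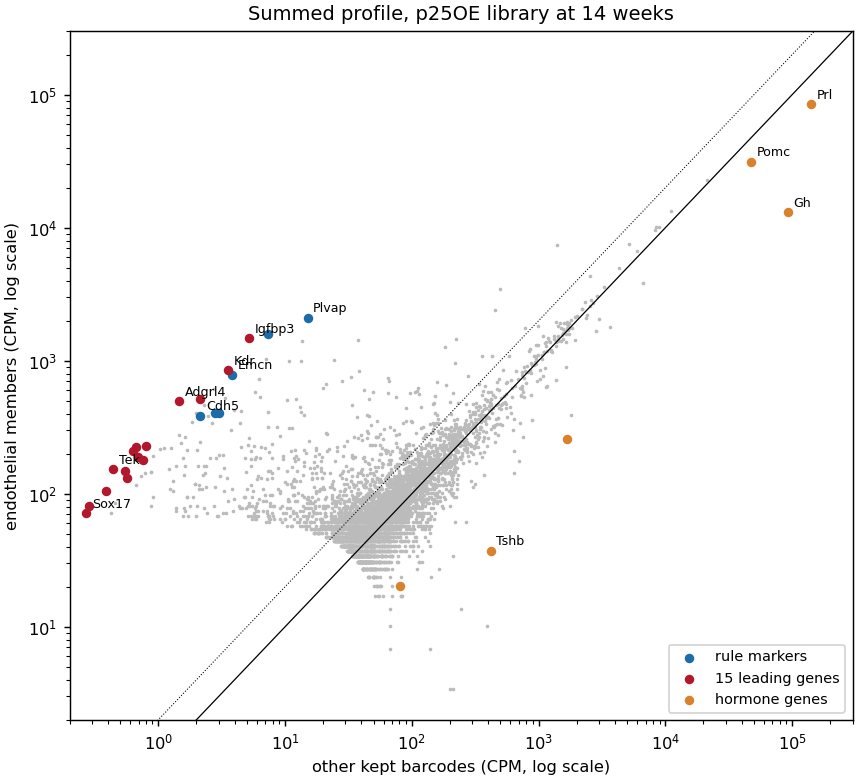
Summed level of each gene in the 52 endothelial barcodes (vertical axis, CPM) against the other kept barcodes (horizontal axis, CPM) of the p25OE library at 14 weeks, both on log scales. Lines mark equal levels (solid) and a 2-fold difference (dotted). The rule markers and leading genes lie far above both lines (Tek at 153 against 0.442 CPM), and the hormone genes lie below.

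The promoters of 4 genes are shown because ETS factors, a family that recognises a GGAA core, are known regulators of endothelial genes and these genes were high together. They are the 2 rule markers with an entry in the RefSeq table and the 2 genes with the highest ratios. Each line gives the 250 bases before the RefSeq start on GRCm38.p6, read along the plus strand of all 4 genes. They lie at chr3:137340828-137341077 (Emcn), chr2:26580833-26581082 (Egfl7), chr4:94739039-94739288 (Tek) and chr3:151437632-151437881 (Adgrl4). Matches to AGGAAG on either strand are in capitals.
Emcn: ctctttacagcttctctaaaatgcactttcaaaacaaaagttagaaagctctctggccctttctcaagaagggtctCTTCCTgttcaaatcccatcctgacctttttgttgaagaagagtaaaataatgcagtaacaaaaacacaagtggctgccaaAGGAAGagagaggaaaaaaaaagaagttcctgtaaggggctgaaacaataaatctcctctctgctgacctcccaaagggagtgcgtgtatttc
Egfl7: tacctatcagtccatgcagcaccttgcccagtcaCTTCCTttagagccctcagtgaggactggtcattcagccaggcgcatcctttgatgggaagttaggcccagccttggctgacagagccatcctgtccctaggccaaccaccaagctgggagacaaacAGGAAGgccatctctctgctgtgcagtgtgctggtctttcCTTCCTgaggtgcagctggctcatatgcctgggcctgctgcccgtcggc
Tek: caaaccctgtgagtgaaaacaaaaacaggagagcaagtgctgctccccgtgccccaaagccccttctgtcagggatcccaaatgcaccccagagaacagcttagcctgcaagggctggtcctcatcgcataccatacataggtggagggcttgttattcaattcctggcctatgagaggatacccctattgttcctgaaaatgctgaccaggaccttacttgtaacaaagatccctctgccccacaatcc
Adgrl4: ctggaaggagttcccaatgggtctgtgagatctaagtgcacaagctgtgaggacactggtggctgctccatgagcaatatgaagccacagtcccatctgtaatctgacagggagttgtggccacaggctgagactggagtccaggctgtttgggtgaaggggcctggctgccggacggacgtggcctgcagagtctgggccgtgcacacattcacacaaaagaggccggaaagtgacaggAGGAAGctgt
Emcn had 2 matches, with their first bases 174 and 93 bases before the start, Egfl7 had 3 (216, 89 and 49 bases before), Adgrl4 had 1 (10 bases before) and Tek had none. Egfl7 has 3 RefSeq starts, and the one shown lies 1069 bases from the 5′ end of the gene in GENCODE. The match was present in 29.5% of all 32851 promoters of the table and in 27.3% of those of the tested genes. It was present in 32.0% of the promoters of the genes at least 2-fold higher (677 of 877 genes matched) and in 39.5% of those at least 10-fold higher (158 of 233 matched). AACAAT, the core of SOX sites, was in 9.42% of all promoters, 4.94% of those of the tested genes and 4.88% of those at least 10-fold higher. The GATA motif was in 9.99%, 5.14% and 6.83%, searched as AGATAA on both strands like the others. Of the 15 leading genes 12 had an entry. A letter match is a description of the window and not a site.

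Genes of the general endothelial programme were high as a group. Of 31 such genes on the list, 31 were detected, 29 passed the filter and 29 were at least 2-fold higher; over all 31 the median level was 221 CPM, against 2.30 CPM in the other barcodes. Kdr led the list, followed by Ctla2a, which encodes a protease inhibitor, at 731 against 6.19 CPM, Tm4sf1 at 673 against 21.0 CPM and Flt1, the second VEGF receptor, at 619 against 2.74 CPM. Of 12 VEGF pathway genes 8 passed the filter and all 8 were higher. Beside Kdr and Flt1 these included Nrp1 and Nrp2, co-receptors of VEGF, at 411 and 238 CPM, and Flt4, the VEGF-C receptor, at 146 CPM. Of the ligands, Vegfa had 1 UMI and Vegfb 6, and Vegfc stood at 71.4 against 7.19 CPM. Of 7 angiopoietin and Tie genes 4 passed the filter and 3 were higher: Tek, Tie1 at 224 CPM and the phosphatase Ptprb, which acts on TEK, at 466 CPM. The ligands Angpt1 and Angpt2 had 5 and 10 UMIs.

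Of 24 endothelial transcription factors, 12 passed the filter and all 12 were at least 2-fold higher. Klf2, a flow-responsive factor, was highest, at 748 against 64.8 CPM, a ratio of 11.5 (10.0 to 13.2). Foxp1 stood at 262 against 121 CPM, Klf4 at 231 against 56.1 CPM and Sox18, a SoxF factor of vessel identity, at 221 against 1.11 CPM. Klf2 and Klf4 were widely present elsewhere, in 20.8% and 24.99% of the other barcodes, whereas Sox18 was in 0.499%.

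Fenestration and caveola genes were detected throughout the list, at uneven levels. All 17 were detected. Without the rule marker Plvap, 13 passed the filter and all 13 were at least 2-fold higher, and the summed level of the 16 was 8721 CPM against 213 CPM elsewhere. After Igfbp3 came Rgcc, a cell cycle regulator found in endothelium, at 1441 against 37.5 CPM, and Fabp4, a fatty acid carrier of capillaries, at 1037 against 7.04 CPM. Fabp4 was found in 36 of the 52 barcodes. Gpihbp1, which anchors lipoprotein lipase to capillary walls, was in 16 barcodes, at 221 against 1.27 CPM. Of the caveola genes, Cavin3 stood at 513 and Cavin2 at 347 CPM, while Cav2 and Cavin1 had 22 and 20 UMIs. Cav1 had 11 UMIs in 8 barcodes, was in 0 barcodes after thinning and did not pass the filter.

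Blood-brain barrier genes were present in part. Of 20, 14 were detected and 6 passed the filter, with 5 higher and 1 lower. Itm2a (517 CPM against 2.15), the efflux pump Abcg2 (415 against 7.37), Slc3a2 (282 against 79.9) and the tight junction claudin Cldn5 (133 against 0.570) were the most abundant. Cldn5 came from 10 of the 52 barcodes. Slc38a5, Mfsd2a, Slco1c1, Foxq1 and Apcdd1, several of them transporters or regulators of the brain barrier, had 0 UMIs, which at this depth allows a count of up to 3. Slc2a1, the glucose transporter of brain capillaries, had 10 UMIs in 6 barcodes, and Ocln 3. At 294233 UMIs a gene at 34 CPM would be expected to give 10 UMIs.

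**Figure D4:**
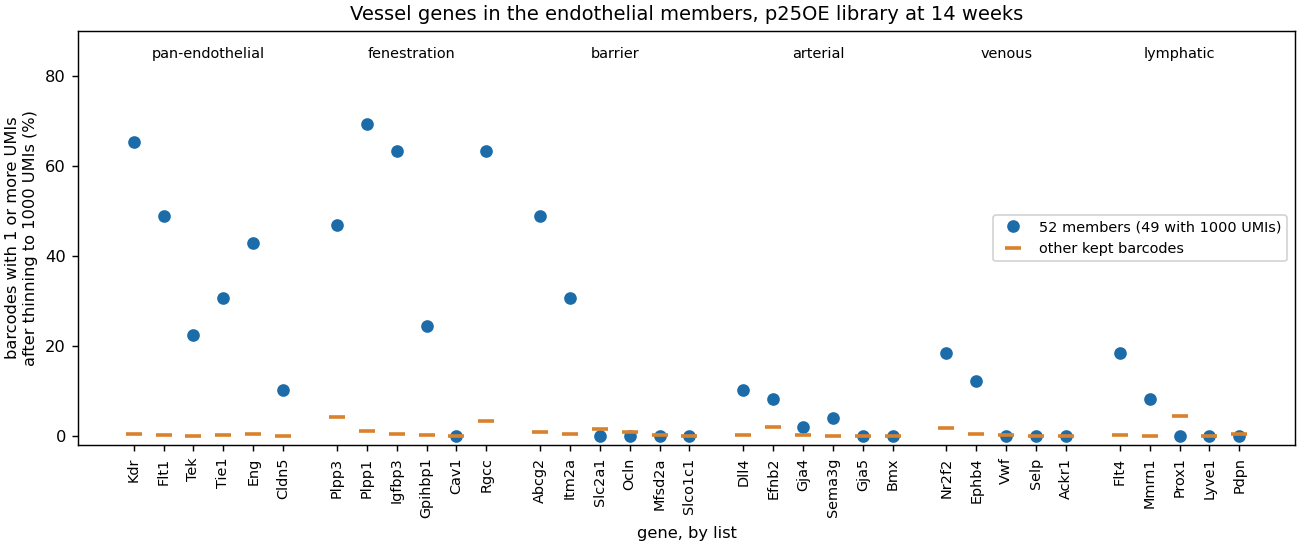
Share of barcodes (%) with at least 1 UMI of each gene after thinning to 1000 UMIs, in the endothelial barcodes of p25OE at 14 weeks (blue points, 49 with 1000 UMIs) and in the other kept barcodes (orange bars), grouped by gene list. The genes shown were chosen after their values were seen. Plpp1 and Igfbp3, drawn in the fenestration group, reach 69.4% and 63.3%, while Cav1 of the same group, Mfsd2a and Slco1c1 stand at 0.

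Markers of arteries and of veins were both present. Of 14 arterial genes 10 were detected and 7 passed the filter, all higher, led by Tm4sf1, Cxcl12 (133 CPM, 5 barcodes), Fbln5 (112 CPM) and the ephrin ligand Efnb2 (102 CPM); Bmx, Hey1, Gja5 and Edn1 had 0 UMIs. Cxcl12 was the gene on this list most affected by possible doublets, with a ratio of 20.6 that fell to 5.18 without them. Of 11 venous genes 8 were detected and 5 passed the filter, all higher, led by Lrg1 (245 CPM), Nr2f2 (156 CPM), the venous regulator, Ephb4 (119 CPM) and Icam1 (88.4 CPM); Sele, Ackr1 and Slc38a5 had 0 UMIs. In the 5 mural and 34 fibroblast barcodes of this library Cxcl12 (790 and 339 CPM) and Nr2f2 (333 and 239 CPM) were higher than in the endothelial barcodes. Tm4sf1, Fbln5, Efnb2 and Ephb4 were lower in both, and Icam1 was higher in the fibroblast barcodes (155 CPM). At least 1 UMI of an arterial gene (Dll4, Efnb2, Gja4, Gja5, Sema3g, Hey1 or Bmx) was held by 27 of the 52 barcodes and of a venous gene (Nr2f2, Ephb4, Vwf, Ackr1 or Selp) by 32. They were held together in 17, the arterial set alone in 10, the venous set alone in 15 and neither in 10. In the other barcodes the shares were 16.6% and 14.1%, and after thinning 20.4% and 24.5% in the endothelial barcodes against 3.31% and 2.21%. Among lymphatic genes Flt4 (146 CPM) and Mmrn1 (105 CPM) were present, while Ccl21a, Pdpn and Lyve1 had 0 UMIs and Prox1, a regulator of lymphatic identity, stood at 23.8 CPM, below its 49.4 CPM elsewhere.

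Several working groups of the vessel wall were also high against the other barcodes, though some of their genes were as high in mural barcodes. The 5 mural barcodes of p25OE at 14 weeks exceeded the endothelial levels for Igfbp7 (2120 CPM), Timp3 (956), Ifitm3 (2951) and Ly6e (2744). They were near them for B2m (1206) and Bst2 (624), and lower for Sparc (748), Col4a1 (707) and Ly6a (291). Of 12 basement membrane and matrix genes that passed the filter, all 12 were at least 2-fold higher: Igfbp7 (1404 CPM, a ratio of 103), Sparc (1020), the collagen IV chain Col4a1 (992) and Timp3 (707). Col4a1 was found in 50 of the 52 barcodes. Antigen presentation genes were higher in 12 of 16 that passed the filter, led by the class I genes H2-D1 (3450 against 497 CPM), H2-K1 (2423 against 457), B2m (1264 against 182) and H2-Q7 (605 against 41.6). The class II chaperone Cd74 was lower, at 177 against 701 CPM. The rule left out barcodes with C1qa, which stayed among the other barcodes. How far that choice set the low level of Cd74 was not tested. Interferon-responsive genes were higher in 19 of 25, led by Ifitm3 (1448 against 225 CPM), Ly6e (969 against 220), Ly6a (843 against 38.2) and Bst2 (625 against 112). Leukocyte adhesion molecules Podxl (221 CPM), Icam2 (187), Cd34 (163) and Jam2 (109) were present, while Vcam1 was at 10.2 CPM against 17.5 elsewhere and Sele, Ackr1 and Madcam1 had 0 UMIs.

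Genes of signalling pathways and cell junctions were also read. Of 17 tip cell and angiogenesis genes 8 passed and 7 were higher, among them Pdgfb, the ligand that recruits pericytes, at 163 against 5.40 CPM. Of 12 Notch genes 6 passed and 5 were higher, led by Hes1 (224 against 25.5 CPM), the receptor Notch1 (129 against 7.17), the ligand Dll4 (95.2 against 1.90) and Notch4 (81.6 against 5.52), while Hey1, Hey2 and Heyl had 0 UMIs. The 5 mural barcodes exceeded the endothelial levels of Hes1 (291 CPM) and Notch1 (208), and Dll4 was at 0 in them. Of 18 BMP and TGF-beta genes 9 passed and 8 were higher, led by Id3 (571 against 64.7 CPM), the co-receptor Eng (523 against 3.34) and Id1 (289 against 45.5), while Id2 (201 against 131) was under 2-fold. Of 17 junction genes 13 passed and 12 were higher, among them the plakoglobin gene Jup (214 against 17.7 CPM); without the rule markers Cdh5, Pecam1 and Esam the count was 9 of 10. The 4 haemostasis genes that passed were all higher, with the thrombin receptor F2r at 119 against 1.94 CPM and Vwf at 2 UMIs. Of 14 lipid handling genes 6 passed and 5 were higher, among them the HDL receptor Scarb1 (313 against 10.8 CPM).

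Immediate early and heat shock genes, which respond quickly to stimulation and to dissociation, mostly stood near their level in the other barcodes. Of 22 on the list 20 passed the filter, 4 of them at least 2-fold higher and 1 at least 2-fold lower. Their median log2 ratio was -0.26, against 0.27 over all genes. The higher genes included Klf2 and Klf4 (ratios of 11.5 and 4.12), also read above as transcription factors, and Hspb1 (3.61). Junb stood at 1394 against 1656 CPM, and pooling UMIs over the libraries turned its ratio from 0.842 to 1.21. Hspa8 stood at 1305 against 991 CPM, Jun at 1077 against 580 and Fos at 890 against 1636. Markers of other cell types were present at low levels. The macrophage list summed to 197 CPM against 1453, with Pf4, Cx3cr1, Cd68 and Csf1r at 0 UMIs. The rule left out barcodes with C1qa, so this low sum was partly set by the choice. Without that condition the ratios of Ctss, Fcer1g and Tyrobp were above 1 (values below). The mural list summed to 323 against 16.4 CPM, mostly from the pericyte gene Rgs5 (48 UMIs in 9 barcodes). The fibroblast list summed to 112 against 125 CPM, with Col3a1, Dpt, Pdgfra, Mfap5 and Col1a1 at 0. Cdk5 had 10 UMIs, Mcm2 6 and Cdk5r1 1 in the 52 barcodes. The hormone genes were lower than in the other barcodes, with Gh at 13034 against 92815 CPM, Prl at 84997 against 142078 and Pomc at 31349 against 47658. The Pomc level came from few cells: its median over the 52 barcodes was 1895 CPM and its highest value 176076, and without the 4 barcodes of over 10000 UMIs its ratio went from 0.658 to 0.0488. That of Prl went from 0.598 to 0.102 without the 3 barcodes in which hormones passed 20% of UMIs.

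The endothelial barcodes of p25OE and WT at 14 weeks could be compared for few genes, since WT had 3 of them. With ratios taken relative to the median gene, 16 genes passed the filter and 7 (43.8%) were at least 2-fold apart. Igfbp3 had 42 UMIs in WT, of which 7, 1 and 34 fell in the 3 barcodes, and 434 in p25OE, a ratio of 0.0781 (0.0569 to 0.110). Most of the WT count thus came from 1 barcode. Apoe, a lipid carrier, had 20 UMIs in WT, 17 of them in that same barcode, and 422 in p25OE, a ratio of 0.160 (0.102 to 0.264). H2-D1, H2-K1 and Malat1 had ratios of 0.320, 0.359 and 0.371. The other 2 were higher in p25OE: Pomc, the hormone precursor of corticotrophs and melanotrophs, at 4.65 (2.82 to 8.31) and the mitochondrial gene mt-Co1 at 2.84 (1.44 to 6.59). A gene passed when its mean level over the 2 libraries gave 10 expected UMIs in the smaller sum, the 3616 UMIs of WT. Igfbp3, Apoe, H2-D1 and H2-K1 passed only through their WT level, and mt-Co1 only through its p25OE level. The directions of these genes were thus fixed by the filter. The p25OE level of Pomc came from few barcodes. Per barcode its median was 1895 and its upper quartile 4170 CPM, against a summed level of 4148 CPM in WT. In WT at 40 against 14 weeks 14 genes passed the filter and 9 (64.3%) were at least 2-fold apart, with Igfbp3 at 2 UMIs in the 5 older barcodes. Both comparisons rest on the same 3 WT barcodes of 14 weeks and share this limit of the filter. Shares this high over so few genes describe those barcodes.

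Dropping the C1qa condition and asking for 3 check genes gave a larger set, chosen after the data had been seen: 11 barcodes with 103880 UMIs in WT and 75 with 517912 in p25OE at 14 weeks. In it Apoe, H2-D1, H2-K1 and Malat1 turned to the other side of 1, at 1.46, 1.74, 1.42 and 1.18, and Igfbp3 stood at 0.840 (0.702 to 1.01). Of 1367 genes 100 (7.32%) were at least 2-fold higher in p25OE and 37 (2.71%) at least 2-fold lower. With each barcode given equal weight (mean of per-cell CPM) the balance turned round, to 168 higher and 236 lower of 1717. Gpihbp1 had 2 UMIs in 2 of 11 WT barcodes and 145 in 27 of 75 p25OE barcodes, 61 of them in 1 barcode, a ratio of 13.0 (3.54 to 109). Klf4 had 2 UMIs in 2 WT barcodes and 127 in 33 p25OE barcodes (11.4, 3.10 to 95.3). Lrg1, a modulator of vessel growth, had 2 UMIs in 1 WT barcode and 104 in 32 p25OE barcodes (9.35, 2.52 to 78.2). At 2 WT UMIs each, Gpihbp1, Klf4 and Lrg1 could pass the filter only through their p25OE level and then had to be higher. With each barcode given equal weight the ratios of Gpihbp1, Klf4 and Lrg1 were 8.28, 16.3 and 43.5. Rasip1, a regulator of vessel lumen formation, and the kinase Snrk stood at 5.12 and 4.12. Among the lower genes the chemokines Cxcl13 and Cxcl9 had 24 and 34 WT UMIs, all in 1 barcode each, and 4932 of the 7721 WT UMIs of Pomc were in 1 barcode.

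Of the general endothelial list 25 genes passed the filter in that set, but 13 of them are check genes that chose its barcodes. Of the other 12, 6 were at least 2-fold higher in p25OE and none was 2-fold lower. Their median log2 ratio was 1.10, against 0.50 for the same genes in the other kept barcodes. A gene with few WT UMIs could pass the filter only through a high p25OE level, so the count of 6 is a description. With each barcode given equal weight 3 of 15 were higher and the median was 0.47. The hormones took 226290 CPM of the WT barcodes and 113208 CPM of the p25OE barcodes, and 8 of 11 and 22 of 75 held markers of another class. With hormones at most 20% of UMIs and at most 20000 UMIs, which left 8 and 68 barcodes, 2 of 10 such genes were at least 2-fold higher and the median was 0.57. The immediate early and heat shock list gave 9 of 16 higher and a median of 1.14, against 1.001 in the other barcodes. The ratio of Gpihbp1 was 9.83 (2.67 to 82.0) in the smaller set. The part of hormone RNA and of possible doublets in these ratios was not tested.

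Mural and fibroblast barcodes had lower ratios of p25OE to WT than endothelial barcodes at 14 weeks. By the same kind of rule (3 markers of the class, 0 UMIs of C1qa) there were 11, 5, 4 and 0 mural barcodes and 48, 34, 32 and 2 fibroblast barcodes. At 14 weeks the ratio of p25OE to WT was 0.390 (0.106 to 1.22) for mural and 0.608 (0.380 to 0.963) for fibroblast barcodes, and both intervals lie below that of the endothelial barcodes (4.82 to 74.5). Without the condition on C1qa the ratios were 0.587 (0.267 to 1.25) and 0.651 (0.430 to 0.980), again below that of the endothelial barcodes (2.84 to 10.1). At 40 weeks the fibroblast ratio was 0.0641 (0.00745 to 0.251).

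Plvap was also read widely outside the endothelial barcodes of p25OE at 40 weeks. Among kept barcodes with fewer than 3 rule markers its summed level was 1.84, 9.45, 4.50 and 33.8 CPM. It was held by 159 of 6566 barcodes (2.42%) in WT at 14 weeks, 478 of 7589 (6.30%) in p25OE at 14 weeks, 205 of 7919 (2.59%) in WT at 40 weeks and 1555 of 7721 (20.1%, 19.3 to 21.1%) in p25OE at 40 weeks. After thinning to 1000 UMIs the shares were 0.185%, 0.935%, 0.532% and 3.18%. The other markers differed: Egfl7 stood at 4.79 (4.25 to 5.38) against 1.39 CPM (1.08 to 1.75) and Pecam1 at 2.503 (2.12 to 2.94) against 1.26 CPM (0.972 to 1.62) in WT at 40 weeks, both higher, and Esam at 0.962 (0.730 to 1.24) against 2.29 CPM (1.89 to 2.75), lower. Emcn had 5 UMIs and Cdh5 7 in those 7721 barcodes, 0.0829 and 0.116 CPM, below their 0.924 and 0.422 CPM in WT at 40 weeks. In p25OE at 40 weeks Plvap was at 33.4 CPM (31.9 to 35.0) in barcodes with more than 2% Pomc UMIs and 36.0 CPM (31.9 to 40.4) in the rest, and the intervals overlapped. The other libraries differed. In p25OE at 14 weeks the same split gave 17.5 (15.9 to 19.2) and 5.08 CPM (4.44 to 5.78). In WT it gave 0.847 (0.484 to 1.38) and 2.10 CPM (1.78 to 2.46) at 14 weeks. At 40 weeks it gave 3.59 (2.60 to 4.84) and 4.78 CPM (4.11 to 5.53) in WT. The cause was not tested. The 4 barcodes counted as endothelial in p25OE at 40 weeks each held Plvap, and the 3 without check genes held 1 UMI of it each. With 2 markers asked for in place of 3, the ratio of p25OE to WT at 40 weeks went from 0.821 to 7.27 (3.95 to 14.6), and at 14 weeks from 14.9 to 3.91.

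**Figure D5:**
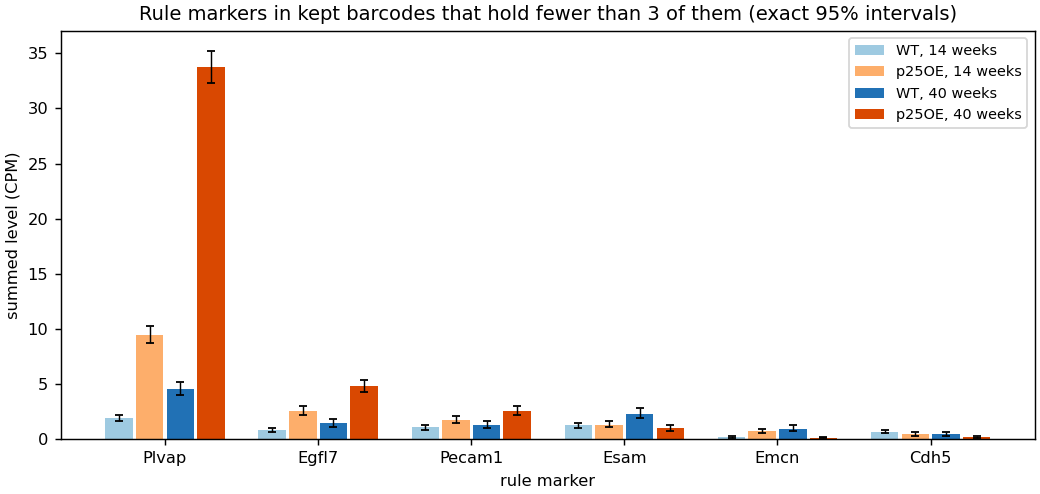
Summed level (CPM) of the 6 rule markers in kept barcodes that hold fewer than 3 of them, 1 bar per library with exact 95% intervals. Plvap reaches 33.8 CPM in p25OE at 40 weeks against 4.50 CPM in WT at 40 weeks, while Emcn and Cdh5 stay below 1 CPM in all 4 libraries.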

How the data were processed

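The deposited matrices of the 4 libraries hold whole-number UMI counts for each gene in each barcode (per the file headers). The authors used Cell Ranger 3.0.2 and the mm10 build, per the submitters' processing notes; the headers themselves name version 3.0.1. How barcodes were filtered before deposit is not given in the sources used here. Per the labels, glands were digested with papain, red cells lysed, and the 10x 3' v2 chemistry applied in 2 independent runs. The 14-week and 40-week barcodes come from different sets, so age cannot be told apart from barcode set. Which libraries shared a run is not given in the sources used here, so neither age nor genotype can be told apart from run.

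Barcodes were kept and endothelial barcodes chosen as stated in the report. UMIs were summed over barcodes and expressed as CPM; ratios carry exact conditional intervals, shares exact Clopper-Pearson intervals, at 95%. The profile uses libraries with at least 10 endothelial barcodes; a gene was tested when its mean level gave 10 expected UMIs (34 CPM), and called at 2-fold. Ratios between libraries were divided by the median ratio of tested genes. Thinning drew 1000 UMIs per barcode without replacement and left out shallower ones. A possible doublet held 3 markers of another class. The script was tested on simulated counts. Gene coordinates are GENCODE M21 on GRCm38; promoters are from RefSeq. Python 3.11.15, numpy 2.4.6, scipy 1.17.1 and pandas 2.3.3 were used.

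Named genes are the rule markers, the 16 check genes, C1qa, Cdk5, Cdk5r1, Mcm2, the hormones, the 15 highest ratios, up to 4 of each list by level, and the extreme ratios of the comparisons; genes named at 0 or few UMIs, those of the larger set and those drawn as vessel genes were picked after their values were seen. The endothelial barcodes, the 40 gene lists and the comparisons were chosen with earlier results of these data known. Alternatives varied the marker number, the C1qa condition, depth, filters, doublets, denominator, scaling and gene filter.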

Additional observations from a re-analysis of the deposited data

Results flagged for a closer look

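The share of endothelial barcodes in p25OE over WT was 0.821 at 40 weeks and 14.9 at 14 weeks, on opposite sides of 1. With 1 library per genotype and age the difference between the ages was not tested, and the 40-week value rests on 5 WT and 4 p25OE barcodes, of which 3 p25OE barcodes held none of the 16 check genes.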

How the results depend on the processing

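The ratio of endothelial shares at 14 weeks stayed above 1 under every alternative run, from 3.91 (2 markers) to 39.5 (4 markers, 1 WT barcode). At 40 weeks it was 7.27 with 2 markers and 7.04 when barcodes with more than 2% Pomc UMIs left the denominator (2 against 1 barcodes), and between 0.205 and 1.07 otherwise. The 877 genes higher in the endothelial barcodes became 408 of 2175 at 20 expected UMIs. The 7 genes apart at 14 weeks became 26 at 5 expected UMIs, 3 at 20, 2 with 4 markers and 137 in the larger set without the C1qa condition. Some ratios crossed 1, and they are listed only where the main interval left out 1. Without the C1qa condition they were Aldoa 1.01, C1qa 1.63, Ctss 1.85, Fcer1g 1.96, Mt1 1.02, Pomc 1.17 and Tyrobp 1.81. In the larger set at 14 weeks they were Apoe 1.46, H2-D1 1.74, H2-K1 1.42 and Malat1 1.18. With pooled libraries it was Junb 1.21. Without barcodes of over 10000 UMIs they were Fcer1g 1.04 and Mcm7 0.722, and Mcm7 was 0.942 as a mean over barcodes. Ratios whose main interval held 1 are not listed, such as Igf1r (1.105, and 0.627 as a mean over barcodes). The causes were not tested. Leaving out WT at 14 weeks, WT at 40 weeks or p25OE at 40 weeks kept 877; without p25OE at 14 weeks no library had 10 endothelial barcodes and no value could be given. No paired analysis was possible because each group has 1 library. Depth limits the WT libraries most, with 3616 and 7287 endothelial UMIs.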

Other observations

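Hormone receptor genes were present in part in the endothelial barcodes of p25OE at 14 weeks. Of 19, 11 passed the filter, 5 were at least 2-fold higher and 1 lower. Ramp2, the adrenomedullin co-receptor (387 against 2.45 CPM), the insulin receptor Insr (177 against 24.9 CPM) and the apelin receptor Aplnr (150 against 0.542 CPM) were higher. Avpr1b, Crhr1, Sstr2 and Trhr, receptors of the gland cells, had 0 UMIs.

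Of 10 glucocorticoid and metallothionein genes that passed, 2 were higher and 1 lower (Mt2, 119 against 314 CPM). Of 9 hypoxia and glycolysis genes 1 was higher. Cell cycle genes were sparse: the G2 and mitosis list had 26 UMIs in 7 of 52 barcodes and no gene that passed, and of 2 S phase genes that passed 1 was higher. Of 2 genes around Cdk5 that passed none was 2-fold apart. The T and NK list summed to 221 against 98.3 CPM, from 5 barcodes, the B cell list to 85.0 against 31.0, the neutrophil list to 6.80 against 338, the platelet list to 16.99 against 18.4 and the erythroid list to 61.2 against 110 CPM. The stem cell list summed to 333 against 362, the pituicyte list to 255 against 68.9 (Vim gave 228 CPM of it) and the melanotroph list to 863 against 988 CPM. The part of these other cell types in the profile was not tested.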
